A study of Mus musculus with 13 samples.

Results

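Of the 40691 regions of mouse macrophage chromatin in which histone H3 acetylated at lysine 27 (H3K27ac) was quantified, 2577 lie in gene deserts. A region was taken as a desert region when it lies on a numbered chromosome of the mm10 build, is under 20000 bp wide and has both edges more than 100 kb from the body of every protein-coding gene in the RefSeq annotation of GRCm38.p6, the same build. The rule uses position and width, and no signal. The desert regions are 6.85% of the 37607 regions on numbered chromosomes under that width. The remainder comprises 25391 regions that overlap a protein-coding gene, 3346 that lie up to 10 kb away and 6293 that lie 10 to 100 kb away. A further 82 regions lie as far from genes but are 20000 bp wide or more and were left out.

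H3K27ac was profiled by chromatin immunoprecipitation and sequencing in bone marrow-derived macrophages from IL10-/-RAG2-/- animals on the 129S6/SvEvTac background. All 4 groups share this genotype, so the cells make no IL-10 themselves and the animals lack mature T and B lymphocytes. The macrophages were grown from marrow with M-CSF, and 3 independent pools of macrophages were stimulated, which the labels do not tie to the replicate numbers. Cells were untreated, exposed to LPS at 1 ng/mL for 195 min, exposed to LPS plus IL-10, also at 1 ng/mL, for the same time (continuous IL-10), or exposed to LPS for 195 min with IL-10 added for the last 30 min (late IL-10, whose dose the labels do not give separately).

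H3K27ac is placed by the acetyltransferases p300 and CBP on nucleosomes beside active promoters and enhancers. An enhancer is a stretch of DNA that binds transcription factors and can raise the transcription of a gene from a long distance by looping, and deserts beside genes of transcription factors often hold many of them. LPS acts through TLR4 and brings NF-kB and AP-1 factors to macrophage enhancers opened by PU.1, and IL-10 acts through its receptor and STAT3. Contact between a region and a gene was not measured here, so each region is named by its position and its flanking protein-coding genes.

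Some desert regions hold the start of a long non-coding RNA (lncRNA) gene or a microRNA, and the sequences of those on which the results below turn are given first. Of the RefSeq promoter windows, which run from 250 bases before to 50 bases after a transcript's start, 106 lie inside 96 desert regions and belong to 97 genes. The sequences were taken from RefSeq (GRCm38.p6), are written 5′ to 3′ on the strand of the gene, and carry capitals only where they match the AP-1 motif TGANTCA on either strand.
A window of Gm34741 lies in a region that both IL-10 treatments raised:
Gm34741 promoter, chr2:160169616-160169915, minus strand: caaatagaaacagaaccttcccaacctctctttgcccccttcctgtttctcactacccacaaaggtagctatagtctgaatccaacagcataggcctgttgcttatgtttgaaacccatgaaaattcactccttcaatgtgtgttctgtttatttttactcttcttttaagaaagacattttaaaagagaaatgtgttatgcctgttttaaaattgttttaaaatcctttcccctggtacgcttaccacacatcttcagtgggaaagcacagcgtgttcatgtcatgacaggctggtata
A window of Gm32240 lies in a region that LPS lowered and continuous IL-10 raised:
Gm32240 promoter, chr4:95206775-95207074, minus strand: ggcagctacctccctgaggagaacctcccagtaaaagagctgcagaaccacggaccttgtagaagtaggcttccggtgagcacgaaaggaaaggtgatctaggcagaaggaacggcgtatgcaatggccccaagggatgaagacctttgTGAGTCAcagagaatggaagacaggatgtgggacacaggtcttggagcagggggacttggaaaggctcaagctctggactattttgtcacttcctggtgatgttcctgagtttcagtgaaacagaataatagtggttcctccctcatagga
The window of 1700112H15Rik lies in a region that was higher with late than with continuous IL-10:
1700112H15Rik promoter, chr1:184557642-184557941, minus strand: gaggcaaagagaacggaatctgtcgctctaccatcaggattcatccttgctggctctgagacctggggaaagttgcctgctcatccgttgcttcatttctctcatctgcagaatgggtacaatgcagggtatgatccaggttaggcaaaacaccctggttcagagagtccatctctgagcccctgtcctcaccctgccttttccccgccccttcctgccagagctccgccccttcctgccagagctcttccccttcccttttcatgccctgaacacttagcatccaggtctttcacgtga
The window of 1700011B04Rik lies in a region that LPS raised from the lowest value the files hold:
1700011B04Rik promoter, chr13:35181373-35181672, plus strand: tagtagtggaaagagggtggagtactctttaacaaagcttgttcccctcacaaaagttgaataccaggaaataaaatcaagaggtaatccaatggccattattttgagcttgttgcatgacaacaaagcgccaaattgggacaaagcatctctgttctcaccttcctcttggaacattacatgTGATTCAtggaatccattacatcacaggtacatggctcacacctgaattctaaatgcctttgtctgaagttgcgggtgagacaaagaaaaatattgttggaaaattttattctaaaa
The window of Gm30530 lies in one of the 8 desert regions with the highest mean signal:
Gm30530 promoter, chr16:93193746-93194045, minus strand: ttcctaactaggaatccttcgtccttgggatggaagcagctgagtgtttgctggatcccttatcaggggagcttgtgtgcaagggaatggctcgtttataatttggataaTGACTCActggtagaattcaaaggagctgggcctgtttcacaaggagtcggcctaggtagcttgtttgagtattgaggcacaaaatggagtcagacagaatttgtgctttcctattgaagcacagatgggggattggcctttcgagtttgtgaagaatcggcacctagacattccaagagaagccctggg
2 mature microRNAs, with the seed (bases 2 to 8) in capitals, come from hairpins inside 1 desert region between Usp25 and Cxadr and have different seeds:
mmu-miR-99a-5p, chr16:77598940-77598961, plus strand: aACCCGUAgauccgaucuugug
mmu-let-7c-5p, chr16:77599672-77599693, plus strand: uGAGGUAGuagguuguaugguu

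Each deposited value is a whole number of reads times 1 factor per library, and no value is below 1 read. The value of 1 read was between 0.419 and 1.97, so a region at 1 read in all 12 libraries shows a log2 difference of 0.36 between LPS and untreated cells, which is no change in reads. No source used here says whether input was subtracted first, and a fold given as "at least" compares deposited values with 3 reads per library only. The libraries held between 5149730 and 26922552 reads over all regions. All 8 macrophage markers examined carried regions (summed mean values 40384 untreated, 33009 LPS, 33069.5 continuous and 30171 late IL-10), against at most 3907 for the markers of any of 6 other cell types. These were dendritic cells (786 to 3907), B cells (1734 to 2821), neutrophils (1084 to 2095), T cells (at most 774), erythroid and mast cells (28.0 to 141) and fibroblasts (1.59 to 68.2). The sums are over lists of unlike length, as the other lists held 4 or 5 genes each. Some single markers of other types were also marked. Group means of the B cell gene Ms4a1 were 1282 to 2371, near those of the macrophage gene Cd68, 1180 to 2534. In material of many cells, fewer cells with the mark and less of it per cell cannot be told apart.

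Replicate 3 stood apart in the desert regions of every group. Desert regions held between 2.07% and 2.91% of a library's region reads in replicates 1 and 2, and between 1.11% and 1.57% in replicate 3. The share of desert regions at exactly 1 read was between 35.6% and 49.4% in replicate 3 and between 26.9% and 40.8% in replicates 1 and 2. Results are therefore given with and without the 4 libraries of replicate 3, an alternative chosen after the data were seen.

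The share of region reads in desert regions was 2.07%, 2.31% and 1.33% in the untreated libraries and 2.91%, 2.80% and 1.11% with LPS. It was 2.51%, 2.35% and 1.56% with continuous and 2.61%, 2.81% and 1.57% with late IL-10. The groups overlapped in every comparison. The mean with LPS, 2.27% ± 1.01 (SD, n = 3), differed from that of untreated cells, 1.90% ± 0.51, by 0.37 percentage points (two-sided exact permutation p = 0.6, where 3 libraries against 3 cannot go below 0.1). Within the replicate numbers, LPS minus untreated was 0.84, 0.49 and -0.22 points, and late minus continuous IL-10 was 0.10, 0.47 and 0.01, all of one sign. The differences of continuous IL-10 from LPS (-0.14 points), late IL-10 from LPS (0.06) and late from continuous IL-10 (0.19) gave exact permutation p-values of 0.8, 0.9 and 0.5, and over the 4 comparisons every adjusted p was 0.9. An exact permutation within replicate numbers gave 0.5 for LPS against untreated cells, 0.75 for both comparisons of IL-10 with LPS and 0.25 for late against continuous IL-10, the smallest p that 3 pairs allow. Counting error was small beside this spread, at most 0.0145 points as a 95% Wilson half-width.

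**Figure D1:**
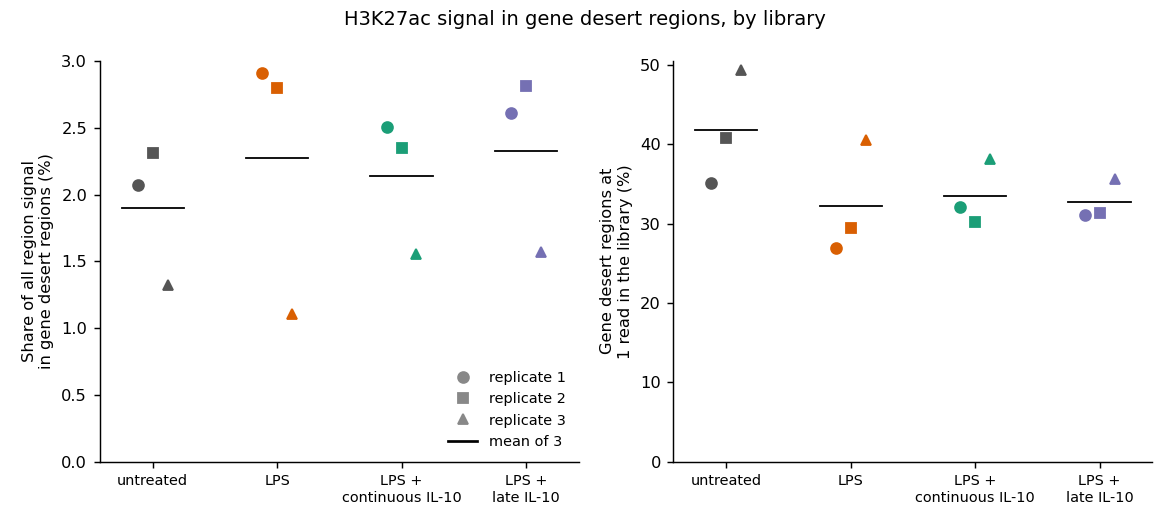
Percent of each library's region reads that lie in the 2577 desert regions (left) and percent of desert regions at exactly 1 read (right), by group (x axis), with 1 point per library shaped by replicate number and a line at the group mean. Replicate 3 has the lowest share of reads in all 4 groups, between 1.11% and 1.57%, and the most desert regions at 1 read.

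LPS changed H3K27ac at 862 of the 2187 desert regions that passed the filter on low values. The log2 difference was higher with LPS at 488 of them (22.3%, against 16.5% of all 36621 regions tested) and lower at 374 (17.1%, against 17.9%), at a limma adjusted p under 0.05. In 464 of the higher and 368 of the lower regions the 3 libraries of one group all lay beyond those of the other, and in 268 and 176 the lower group lay at 3 reads or fewer in every library. The other 390 desert regions were too weak to be tested, and 99 regions held 3 reads or fewer in every library. Without replicate 3 the counts were 813 higher (35.4%, against 23.4% of all regions) and 396 lower (17.3%, against 21.1%), and a fit that takes the replicate number as a block gave 803 (36.7%, against 24.1%) and 487 (22.3%, against 24.9%). Leaving out LPS replicate 3 alone gave 796 higher (36.0%, against 22.3%) and 351 lower (15.9%, against 21.0%), leaving out replicate 1 gave 330.0 and 341, and leaving out replicate 2 gave 335 and 333. Higher and lower regions were thus near equal in number when LPS replicate 1 or 2 was left out. Without LPS replicate 1, 15.22% were higher (against 12.12% of all regions) and 15.73% lower (against 14.88%). Without LPS replicate 2 the shares were 15.48% (against 11.98%) and 15.39% (against 14.48%). The share higher therefore stayed above that of all regions in both cases, and so did the share lower. The share of higher regions among those called was 56.6%, and it was 67.1% with edgeR's TMM scaling and 67.4% with DESeq2's size factors. Over all regions the balance moved the same way. The shares of all regions called higher and lower were 16.5% and 17.9% as reported, 19.6% and 15.0% with edgeR and 23.2% and 18.1% with DESeq2. Median centring moved the median log2 difference over all regions from -0.06 to 0.17. It gave 589 higher (26.9%, against 19.1% of all regions) and 336 lower desert regions (15.4%, against 14.9%).

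Distance from genes and signal level moved together, so the regions were also set beside others of like level. Desert regions were weaker than the rest, with a median mean value of 23.7 against 44.3, and 10.1 against 14.4 per kb, while their median widths were 2746 bp and 2943 bp. Among regions whose mean log2 value was over 6.43, LPS raised 28.9% of 384 desert regions, 26.0% of those 10 to 100 kb from a gene, 16.9% of those up to 10 kb away and 12.6% of those overlapping a gene. Between 3.54 and 6.43 the shares were 28.0%, 25.8%, 23.7% and 17.3%, and below 3.54 they were 14.9%, 14.5%, 11.4% and 10.4%. At each level, desert regions thus had the highest share raised, close to that at 10 to 100 kb. The shares lowered by LPS in desert regions, 15.4%, 14.0% and 20.4% from the high to the low level, lay under those at 10 to 100 kb, 19.2%, 19.6% and 27.1%. For regions overlapping a gene they were 10.8%, 15.4% and 23.7%, so that at the high level desert regions were lowered more often than these. With the replicate block, the shares raised from the high to the low level were larger in every class. They were 38.5%, 41.1% and 32.3% in desert regions and 33.4%, 33.3% and 25.7% at 10 to 100 kb. Up to 10 kb away they were 22.8%, 28.8% and 19.6%, and for regions overlapping a gene 18.5%, 23.3% and 19.5%. These shares are descriptions, and no test of the difference between distance classes was made.

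**Figure D2:**
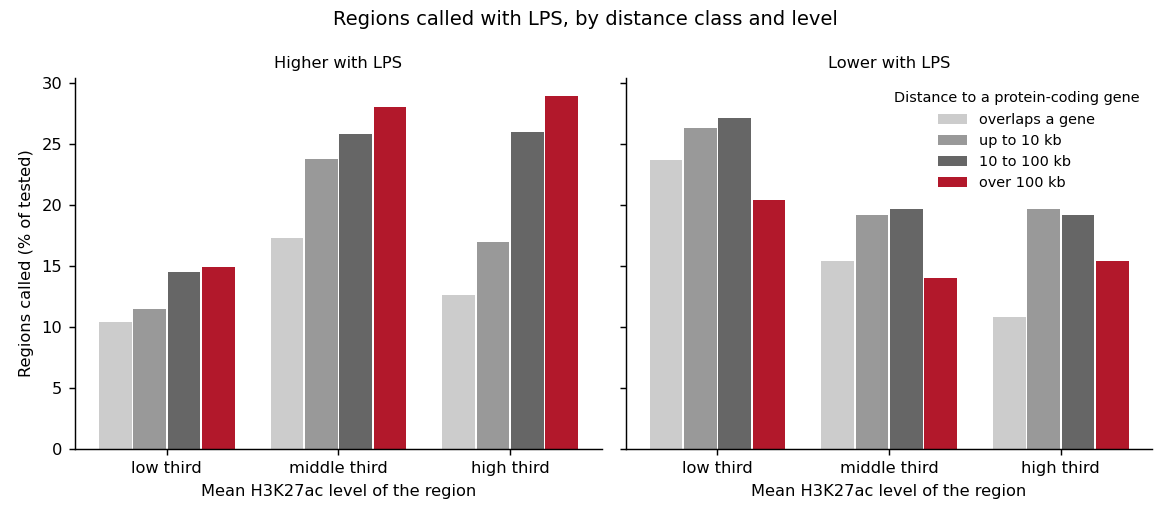
Percent of tested regions called higher (left) or lower (right) with LPS than in untreated cells (y axis, limma adjusted p under 0.05), in 3 equal classes of mean level (x axis) and by distance to the nearest protein-coding gene (bars). Desert regions, at over 100 kb, have the highest share raised at each level, 28.9% in the highest class.

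The desert region that LPS raised most lies between Serp2 and Lacc1, the latter an enzyme of macrophage metabolism. At chr14:76746890-76765841, 189816 bp from Serp2, the untreated libraries held 0.707, 1.26 and 0.419, which is 3 reads or fewer, and the LPS libraries held 2174, 2637 and 915. Continuous IL-10 gave 449, 448 and 183, and late IL-10 gave 826, 1389 and 635. The untreated libraries lay at the floor, far under every stimulated library, and the continuous IL-10 libraries were the lowest of the 3 stimulated groups. The log2 difference of LPS from untreated cells was 9.95 (SE 0.54, adjusted p = 1.43e-07), at least 799.9-fold. That of continuous IL-10 from LPS was -2.38 (SE 0.54, adjusted p = 0.0205), and this call was lost without LPS replicates 1 and 2 and continuous IL-10 replicate 3. A second region in this desert, chr14:76871963-76890189, 131550 bp from Lacc1, held 763, 1338 and 307 with LPS against values at the floor without it (log2 difference 8.59 (SE 0.75, adjusted p = 5.88e-06), at least 336-fold).

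Nfkbiz, the gene of the NF-kB cofactor IkB-zeta, flanks a desert with another of the strongest gains. At chr16:55585792-55599853, 211522 bp from Nfkbiz, the untreated libraries held 0.707, 1.26 and 0.419 and the LPS libraries 927, 1064 and 349, and the groups stood apart (log2 difference 8.64 (SE 0.62, adjusted p = 1.11e-06), at least 327-fold). Continuous IL-10 gave 233, 154 and 84.8, and its log2 difference from LPS was -2.27 (SE 0.62, adjusted p = 0.0446), lost without any of LPS replicates 1 and 2 and continuous IL-10 replicates 1, 2 and 3. At chr6:127257817-127271038, 105629 bp from Ccnd2, which encodes the cell cycle protein cyclin D2, values rose from the floor to 1356, 891 and 365 with LPS (log2 difference 8.76 (SE 0.66, adjusted p = 2.11e-06), at least 365-fold). There continuous IL-10 gave 152, 78.8 and 126, a log2 difference of -2.72 (SE 0.66, adjusted p = 0.028) from LPS that was lost without LPS replicates 1 and 2 and continuous IL-10 replicates 1, 2 and 3. Between Foxo1 and Cog6, chr3:52854845-52866297 rose from the floor to 1072, 1143 and 309 (log2 difference 8.68 (SE 0.73, adjusted p = 4.78e-06)). Between Akr1e1 and Klf6, the gene of a zinc-finger transcription factor, chr13:5298089-5313621 held 1566, 1696 and 113 with LPS and lay at the floor in untreated cells (log2 difference 8.57 (SE 1.34, adjusted p = 0.000349)). The third LPS library was far under the other two there, as in most desert regions.

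The desert regions lowered most by LPS were strong in untreated cells and lay at the floor after 195 min. At chr6:117426959-117442208, 245591 bp from Cxcl12, which encodes a chemokine, untreated libraries held 1342, 1701 and 1187 and LPS libraries 1.97, 1.68 and 0.464 (log2 difference -9.27 (SE 0.83, adjusted p = 6.9e-06), at least 343-fold lower). At chr10:10179305-10192952, 142751 bp from Adgb, untreated libraries held 1181, 872 and 784 and LPS libraries 1.97, 1.68 and 0.464, a log2 difference of -8.68 (SE 1.03, adjusted p = 5.17e-05). Continuous IL-10 left 194, 41.9 and 108 at this region, above every LPS library (log2 difference 5.42 (SE 1.03, adjusted p = 0.00842) from LPS, adjusted p = 0.0528 without replicate 3).

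A pair of lowered regions lies between Insc and Sox6, which encodes a transcription factor of the SOX family. At chr7:115120659-115136672 the untreated libraries held 814, 557 and 519.6, and at chr7:115083764-115087759 they held 474, 507 and 353, while every LPS library lay at 3 reads or fewer in both (log2 differences -8.09 (SE 0.71, adjusted p = 5.88e-06) and -7.60 (SE 0.81, adjusted p = 2.31e-05)). The first of the pair also lay at the floor with continuous and with late IL-10. Between Prl5a1 and Sox4, chr13:28413536-28426158 fell from 785, 548 and 451 to the floor (log2 difference -8.00 (SE 1.17, adjusted p = 0.000215)). Near Gata6, the gene of a GATA factor of tissue macrophages, chr18:11194050-11204555 held 268, 364 and 453 in untreated cells and 1.97, 1.68 and 0.464 with LPS (log2 difference -7.29 (SE 1.21, adjusted p = 0.000536)). The 6 regions raised most and the 6 lowered most by LPS kept their calls with any 1 library left out, and without replicate 3.

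Desert regions are crowded. They fell into 569 deserts, each the gap between 2 protein-coding genes, of which 66 held 10 or more and 1233 in all. Chains of 3 or more with gaps of at most 25 kb took in 1391 of them. Chromosome 13 had the most, 303 (15.0% of its regions), and chromosomes 11 and 7 the lowest shares (2.18% and 2.25%). The deserts described next were chosen after their values were seen, and neighbouring regions share a locus and are not independent.

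In several large deserts most tested regions were called higher with LPS and none lower. Between St3gal1 and Zfat on chromosome 15, 47 desert regions within 648 kb summed to 1693, 1891 and 1115 in untreated cells and 6501, 8675 and 2351 with LPS. LPS raised 28 of the 45 tested and lowered none, and without replicate 3 it raised 29. Their strongest gain, at chr15:67862402-67873096, went from 0.707, 1.26 and 0.419 to 482, 427 and 397 (log2 difference 7.95 (SE 0.55, adjusted p = 8.35e-07), at least 182-fold). Between Mterf1b and Fzd1, which encodes a Wnt receptor, the sum went from 77.8, 87.0 and 13.4 to 2062, 1892 and 499, with 15 of 18 tested regions called higher and none lower. In the Zpld1 to Nfkbiz desert the 14 regions summed to 513, 1027 and 788 without and 5700.1, 5828 and 2045 with LPS, and 9 were called higher. In all 3 deserts each LPS sum lay above each untreated sum, and the third LPS library was the lowest. The sums themselves were not tested.

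The desert on the Gsdmc side of Myc, the gene of a transcription factor of growth, spans chr15:62104053-63618544 and overlaps the lncRNA gene Pvt1 in part. Its 33 desert regions summed to 281, 644 and 257 in untreated cells, 5584, 7139 and 2049 with LPS, 4264, 3661 and 2408 with continuous and 8267, 10257 and 3566 with late IL-10. LPS raised 16 of the 30 tested, and 21 with the replicate block, and lowered none. At chr15:62259387-62269408, inside Pvt1, values were 2.12, 74.4 and 0.419 in untreated cells and 944, 1551 and 478 with LPS (log2 difference 7.00 (SE 1.10, adjusted p = 0.000366)). Late IL-10 raised 2 regions of this desert over LPS. One, chr15:62127172-62141029, 136811 bp from Myc, which LPS alone had not changed by the test, held 103, 54.2 and 92.1 in untreated cells, 100.3, 103 and 177 with LPS and 773, 735 and 485 with late IL-10 (log2 difference 2.40 (SE 0.42, adjusted p = 0.00555)). Continuous IL-10 gave 469, 297 and 340.0 there, also above LPS (log2 difference 1.56 (SE 0.42, adjusted p = 0.0433)), a call lost without LPS replicates 1 and 2 and continuous IL-10 replicates 1, 2 and 3. The other, chr15:62209125-62226832, which LPS had raised from the floor, went from 148, 80.7 and 9.27 with LPS to 1157, 1458 and 439 with late IL-10 (log2 difference 4.18 (SE 0.90, adjusted p = 0.0197)), a call lost without late IL-10 replicates 1 and 2.

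In other large deserts, many more regions were called higher with LPS when replicate 3 was left out. The desert between Nmbr and Cited2, which encodes a partner of p300 and CBP, spans 2657 kb, and its 59 regions summed to 2686, 4058 and 1927 in untreated cells and 15194, 18060.0 and 3689 with LPS. LPS raised 14 of 50 tested regions and lowered none, and 31 were raised without replicate 3. With continuous IL-10 the sum was 4765, 5467 and 2429, and 4 regions were called lower than LPS, 12 with the replicate block and 17 without replicate 3. With late IL-10 the sum was 5598, 7842 and 2899.9, and 1 region was called lower, 5 with the block and 10 without replicate 3. The strongest gain with LPS was at chr10:17405256-17423813, 299415 bp from Cited2, from 2.12, 32.8 and 0.419 to 2339, 2522 and 507 (log2 difference 8.09 (SE 0.97, adjusted p = 5.58e-05)). In the desert beside Zeb2, a factor of macrophage identity, 73 regions summed to 3186, 3677 and 1016 without and 10403, 14346 and 2468 with LPS, with 19 of 66 tested called higher and 31 without replicate 3. Of 37 regions tested between Akr1e1 and Klf6, 6 were called higher, 20 with the block and 23 without replicate 3. There the untreated libraries summed to 2699, 4188 and 1191 and the LPS libraries to 10060.3, 11604 and 859.7. The third LPS library thus lay under every untreated one.

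Deserts that lost the mark with LPS included the one beyond Klf4, the gene of a zinc-finger factor of monocyte differentiation. Its 24 regions summed to 3418, 3319 and 2623 in untreated cells and 1954, 2151 and 1390.3 with LPS, so that every LPS library lay under every untreated one. LPS lowered 14 of the 22 tested and raised 1. The lowered regions lie 131392 to 578991 bp from Klf4, and the nearest one of the desert, at 116814 bp, was not called. At chr4:55811012-55818786, values were 269, 366 and 283 in untreated cells, 1.97, 1.68 and 0.464 under LPS and 48.9, 61.0 and 33.5 under continuous IL-10 (log2 difference -7.07 (SE 0.92, adjusted p = 0.0001) for LPS). The continuous IL-10 libraries lay between those groups, 4.39 (SE 0.92, adjusted p = 0.0142) above LPS on the log2 scale, a call lost without continuous IL-10 replicate 2.

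Between Mmadhc and Rnd3, the gene of a small GTPase, regions moved both ways. LPS lowered 9 and raised 5 of the 30 tested. All 9 lowered regions lie 217259 to 550065 bp from Mmadhc, and the 5 raised ones lie on the other side, within 162625 bp of Rnd3. At chr2:50628309-50636237, values were 235, 343 and 147 in untreated cells, 1.97, 1.68 and 0.464 under LPS and 21.9, 34.3 and 30.6 under continuous IL-10. LPS thus took this region to the floor (log2 difference -6.66 (SE 0.75, adjusted p = 3.38e-05)), and continuous IL-10 left it above LPS (log2 difference 3.70 (SE 0.75, adjusted p = 0.0113)). At chr2:51000447-51006889, on the Rnd3 side, LPS raised the values from 0.707, 49.2 and 13.4 to 342, 618 and 189 (log2 difference 5.00 (SE 0.93, adjusted p = 0.00119)). Continuous IL-10 raised 5 regions of this desert over LPS, 14 with the block, and lowered none with all libraries.

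**Figure D3:**
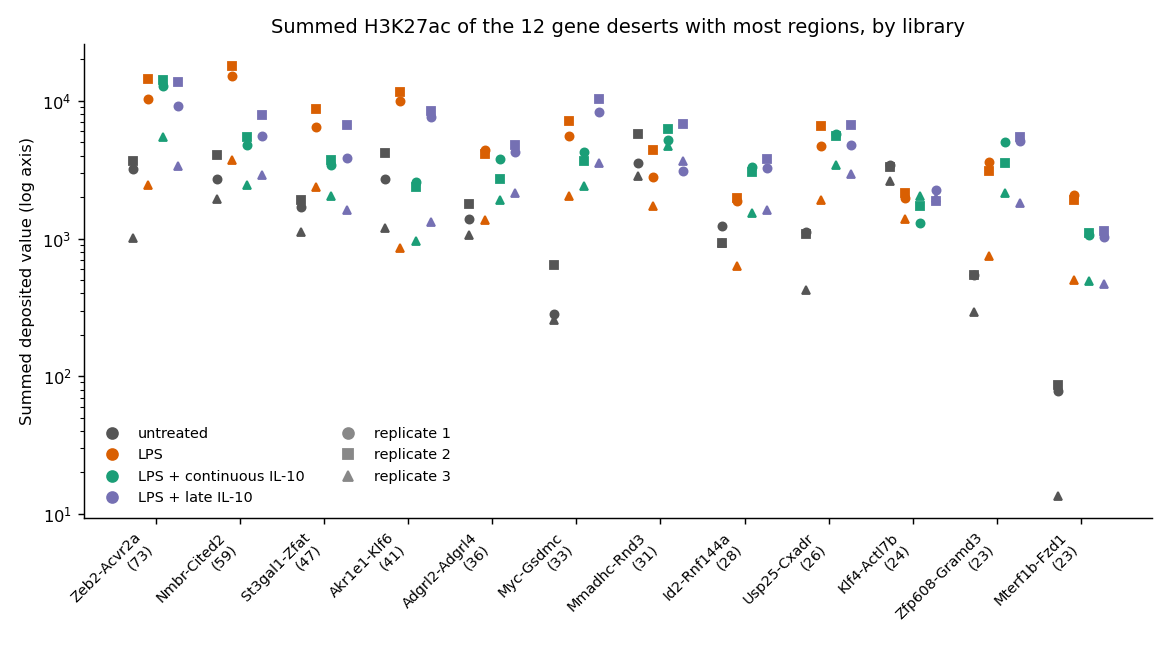
Summed deposited value of the desert regions in each library (y axis, log scale) for the 12 deserts with the most regions (x axis, named by flanking genes, with the number of regions), with 1 point per library, coloured by group and shaped by replicate. In the Mterf1b to Fzd1 desert every LPS library lies above every untreated one, in the Klf4 to Actl7b desert every LPS library lies below, and replicate 3 is lowest in most groups.

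Continuous IL-10 changed fewer desert regions. Against LPS, 82 were higher (3.75%, against 3.28% of all regions tested) and 68 lower (3.11%, against 3.24%), shares near the background. With the replicate block the counts were 212 (9.69%, against 7.42%) and 199 (9.10%, against 8.98%). Without replicate 3 they were 107 (4.66%, against 5.33%) and 280 (12.2%, against 9.67%), so there the lower share was above the background. With DESeq2 on the recovered reads they were 144 (6.58%, against 5.10%) and 179 (8.18%, against 7.55%). Without LPS replicate 2 or any 1 continuous IL-10 library, 38 to 54 were higher (1.75% to 2.50%, against 1.57% to 1.89% of all regions). The lower count was 15 (0.693%, against 0.983%) without LPS replicate 2 and 16 (0.738%, against 1.05%) without LPS replicate 1. It was 22 to 44 (1.00% to 2.02%, against 1.42% to 2.04%) without 1 continuous IL-10 library. Without LPS replicate 3 it was 206 (9.31%, against 7.54%). The LPS libraries are shared by both comparisons of IL-10 with LPS, so these are not independent of each other.

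Some desert regions that LPS emptied were marked in the presence of IL-10. The desert between Dhx35 and Gm826 holds the lncRNA gene Gm34741, with a promoter window printed above. Another Gm34741 window lies in the weaker region chr2:160160450-160162094, not called against LPS with continuous or late IL-10 (limma adjusted p = 0.0576 and 0.952). At chr2:160168483-160185822, values were 562, 521 and 553 in untreated cells and 1.97, 1.68 and 20.9 with LPS (log2 difference -6.61 (SE 0.64, adjusted p = 1.3e-05)). They were 1747, 1264 and 1304 with continuous and 808, 1247 and 914 with late IL-10. Every IL-10 library thus lay above every LPS and every untreated library, by a log2 difference of 7.99 (SE 0.64, adjusted p = 2.89e-05) from LPS for continuous and 7.45 (SE 0.64, adjusted p = 3.79e-05) for late IL-10. Its neighbour chr2:160144659-160160156 held 983, 927 and 714, then 1.97, 1.68 and 31.1 with LPS, 1212, 983 and 764 with continuous and 379, 665 and 458 with late IL-10. The log2 differences of the neighbour from LPS were 7.26 (SE 0.74, adjusted p = 0.000232) and 6.26 (SE 0.74, adjusted p = 0.000439).

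Between Dusp10, the gene of a MAP kinase phosphatase, and Hlx, the gene of a homeobox factor, chr1:184470306-184485672 held 264, 124 and 314 in untreated cells and 1.97, 8.40 and 11.6 with LPS. It held 305, 549 and 240.5 with continuous and 641, 624 and 629.7 with late IL-10 (log2 differences from LPS 5.61 (SE 0.60, adjusted p = 0.000319) and 6.49 (SE 0.60, adjusted p = 7.43e-05)). Here too no IL-10 library overlapped the LPS libraries. Beside Tbc1d1, chr5:64460375-64471283 was at the floor in untreated cells, held 1.97, 6.72 and 0.464 with LPS, 378, 340.4 and 393 with continuous and 525, 689.8 and 306 with late IL-10. This region was therefore marked in the IL-10 groups without having been marked before LPS (log2 differences from LPS 6.85 (SE 0.77, adjusted p = 0.000373) and 7.22 (SE 0.77, adjusted p = 0.000178)). Its neighbour chr5:64478484-64496047 rose too with continuous IL-10 (log2 difference 6.31 (SE 1.25, adjusted p = 0.0106), not called by edgeR). It held 641, 410.3 and 342 there, against 1.97, 40.3 and 0.464 with LPS.

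A further pair of regions lay at the floor in all LPS libraries. At chr14:62160053-62167002, 109227 bp from Dleu7, values were 251, 158 and 205 with continuous and 225, 156 and 171 with late IL-10, at least 49.8-fold and 44.8-fold over LPS (adjusted p = 0.0049 and 0.00584, the latter 0.0663 without replicate 3). At chr8:80236626-80245289, 178566 bp from Hhip, which encodes a hedgehog-binding protein, values were 155, 50.8 and 57.2 with continuous and 306, 493 and 235 with late IL-10, and 0.707, 6.30 and 2.93 in untreated cells. Late IL-10 there lay above continuous IL-10 in every library, and the log2 difference from LPS was 7.18 (SE 0.83, adjusted p = 0.000345) for late IL-10. The gains with IL-10 in the Dhx35 to Gm826 desert and at the Dusp10 to Hlx, Dleu7, Hhip and first Tbc1d1 regions kept their calls with any 1 library left out.

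Of the 6 regions that fell most with continuous IL-10 and whose groups do not overlap, LPS had raised 3, beside Dusp6, Nr4a3 and Tcerg1l. At chr10:99538231-99543111, 270742 bp from Dusp6, the gene of an ERK phosphatase, values were 0.707, 1.26 and 0.419 in untreated cells, 301, 149.6 and 31.5 with LPS, 1.69, 1.27 and 0.986 with continuous and 144, 39.4 and 25.7 with late IL-10. The mark gained with LPS was thus at the floor with continuous IL-10 and present with late IL-10 (log2 differences 6.01 (SE 0.96, adjusted p = 0.000389) for LPS and -5.63 (SE 0.96, adjusted p = 0.00451) for continuous IL-10 against LPS). The same order was seen at chr4:47797013-47800762, 244316 bp from Nr4a3, the gene of an early-response nuclear receptor, with 285, 183 and 39.9 under LPS, 1.69, 3.81 and 0.986 under continuous and 129, 118 and 29.2 under late IL-10. Its log2 difference of continuous IL-10 from LPS was -5.45 (SE 0.94, adjusted p = 0.00467). Outside these 6, chr17:83975588-83987909 between Haao and Zfp36l2, which encodes an RNA-binding protein, held 0.707, 1.26 and 0.419 in untreated cells, 262, 272 and 109 with LPS, 3.37, 1.27 and 16.8 with continuous and 245, 263 and 108 with late IL-10, so that late IL-10 libraries overlapped those of LPS (log2 difference of continuous IL-10 from LPS -5.15 (SE 0.88, adjusted p = 0.0046)).

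At chr16:5426135-5433199, beside Rbfox1, LPS gave 634, 499 and 324, continuous IL-10 69.1, 1.27 and 0.986 and late IL-10 574, 344 and 168 (log2 difference of continuous IL-10 from LPS -6.11 (SE 1.10, adjusted p = 0.00612), not called by edgeR). At chr3:61685366-61689664, 316663 bp from Rap2b, LPS gave 126, 287 and 47.8 and continuous IL-10 lay at the floor (log2 difference -5.72 (SE 1.09, adjusted p = 0.00851)). At chr7:138614920-138623768, between Tcerg1l and Mapk1ip1, values were 0.707, 46.6 and 0.419 in untreated cells, 165, 356 and 125 with LPS and 1.69, 3.81 and 0.986 with continuous IL-10. This loss rested on more libraries, since the log2 difference of -6.05 (SE 1.52, adjusted p = 0.0315) was lost with edgeR or without any 1 of LPS replicates 1 and 2 and continuous IL-10 replicates 1, 2 and 3. At chr14:76686320-76691413, in the Serp2 to Lacc1 desert whose other regions LPS raised most, LPS libraries held 116, 94.1 and 55.2, overlapping the untreated 114, 17.6 and 46.9. All continuous and late IL-10 libraries lay at the floor there (log2 differences from LPS -5.22 (SE 0.83, adjusted p = 0.00299) and -5.13 (SE 0.83, adjusted p = 0.00326)).

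**Figure D4:**
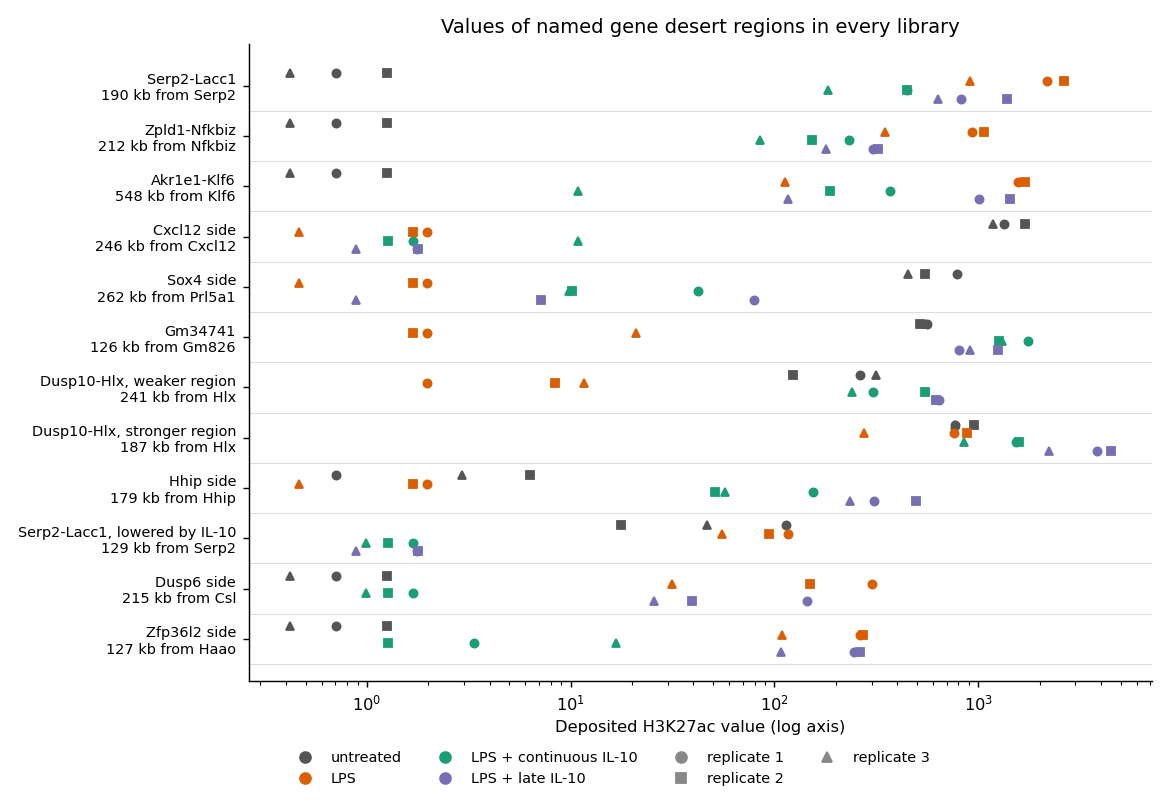
Deposited value (x axis, log scale) of 12 desert regions (y axis, named by flanking genes with the distance to the nearest) in each of the 12 libraries, coloured by group and shaped by replicate. The Serp2 to Lacc1 region raised by LPS goes from the floor to between 915 and 2637, the Gm34741 region is near the floor with LPS and between 808 and 1747 with IL-10, and the Zfp36l2 region is low with continuous IL-10 only among the LPS-treated groups.

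Late IL-10, present for the last 30 min only, raised 76 desert regions over LPS (3.48%, against 3.14% of all regions tested) and lowered 16 (0.732%, against 0.396%). With the block the counts were 148 (6.77%, against 6.17%) and 58 (2.65%, against 1.92%), and without replicate 3 they were 89 (3.88%, against 3.91%) and 58 (2.53%, against 1.23%). The higher count was 30 (1.38%, against 1.58% of all regions) and 35 (1.62%, against 1.62%) without late IL-10 replicate 1 or 2. The lower count was 4 (0.185%, against 0.139%), 6 (0.277%, against 0.101%) and 32 (1.45%, against 0.593%) without LPS replicates 1, 2 and 3. Without late IL-10 replicates 1 and 2 it was 6 (0.276%, against 0.104%) and 7 (0.323%, against 0.243%).

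The desert between Dusp10 and Hlx showed the largest sum with late IL-10 relative to LPS among those described. Its 15 regions summed to 2085, 2025 and 2002 in untreated cells, 2158, 2299 and 589 with LPS, 3613, 3811 and 1919.9 with continuous and 9686, 11347 and 5501 with late IL-10. Every late IL-10 library lay above every library of the other groups. Late IL-10 raised 4 of its 15 regions over LPS and lowered none. At chr1:184528000-184540232, 186911 bp from Hlx and inside the lncRNA gene 1700112H15Rik, values were 767, 957 and 767 in untreated cells, 759, 882 and 276 with LPS, 1526, 1579 and 854 with continuous and 3822, 4501 and 2225 with late IL-10. The log2 difference of late IL-10 from LPS was 2.56 (SE 0.43, adjusted p = 0.0044), and those of continuous IL-10 from LPS and of late from continuous IL-10 missed the threshold (adjusted p = 0.143 and 0.1). The region nearest Hlx, chr1:184612588-184626845 at 100298 bp, held 722, 684 and 179 with LPS and 3009.7, 3471 and 1589.9 with late IL-10 (log2 difference 2.52 (SE 0.50, adjusted p = 0.013), lost without late IL-10 replicates 1 and 2).

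**Figure D5:**
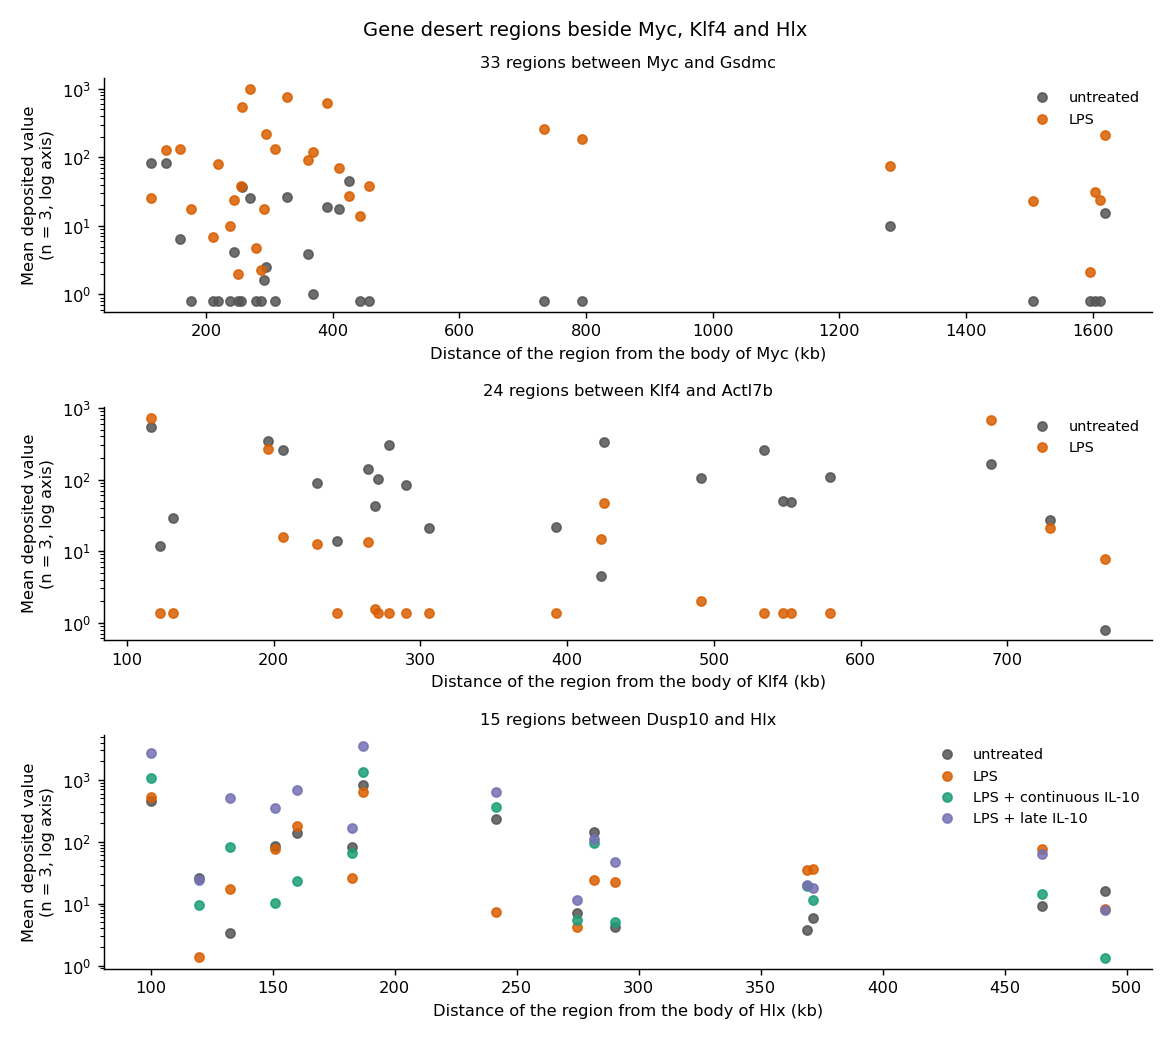
Mean deposited value of each desert region (y axis, log scale, n = 3) against its distance in kb from the body of Myc, Klf4 or Hlx (x axis), in untreated cells and with LPS, and for Hlx also with continuous and late IL-10. Beside Myc most LPS points lie above the untreated ones, beyond Klf4 most lie below, and beside Hlx the late IL-10 point is the highest at the strongest regions.

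A second place with a late gain lies 195694 bp from Runx1, the gene of a blood-forming transcription factor. At chr16:93021768-93038425 values were 1864, 2676 and 1725 in untreated cells, 732, 912 and 534 with LPS, 809, 565 and 750.0 with continuous and 2277, 2729 and 1517 with late IL-10. LPS lowered this region in every library (log2 difference -1.53 (SE 0.31, adjusted p = 0.00214)), the continuous IL-10 libraries overlapped those of LPS, and the late IL-10 libraries overlapped those of untreated cells. The log2 difference of late IL-10 from LPS was 1.57 (SE 0.31, adjusted p = 0.0121), with an adjusted p of up to 0.0704 when late IL-10 replicate 1 or 2 was left out. At chr1:166797792-166805481, between Fmo9 and Fam78b, late IL-10 gave 391, 337 and 90.3 where LPS and continuous IL-10 lay at the floor (log2 difference from LPS 6.66 (SE 1.20, adjusted p = 0.00666)).

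Losses with late IL-10 were few. At chr6:35655721-35660092, 115833 bp from Mtpn, LPS gave 144, 126 and 129 and late IL-10 1.76, 3.58 and 28.3 (log2 difference -4.22 (SE 0.90, adjusted p = 0.0184)). At chr5:99423394-99428985, beside Rasgef1b, LPS gave 110.2, 63.9 and 26.4, and all libraries of both IL-10 groups lay at the floor (log2 differences -4.67 (SE 0.94, adjusted p = 0.0113) for continuous and -4.58 (SE 0.94, adjusted p = 0.0145) for late IL-10). The late losses at both of these places, and those at chr10:99371257-99373757 beside Dusp6, chr10:17342812-17349905 in the Cited2 desert and chr2:45292229-45300383 in the Zeb2 desert, with log2 differences of -4.37 (SE 0.96, adjusted p = 0.0208), -5.03 (SE 1.22, adjusted p = 0.0378) and -4.19 (SE 0.98, adjusted p = 0.0308), were lost when 1 of several libraries was left out. LPS replicate 1 and late IL-10 replicates 1 and 2 each ended all 5 of these calls, and edgeR did not call the late losses beside Mtpn, Rasgef1b and Dusp6 and in the Cited2 desert.

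Late and continuous IL-10 were compared directly. Late IL-10 was higher at 28 desert regions (1.28%, against 1.86% of all regions tested) and lower at 29 (1.33%, against 0.852%). With the block the counts were 155 (7.09%, against 8.02%) and 116 (5.30%, against 4.96%), and without replicate 3 they were 211 (9.20%, against 8.56%) and 78 (3.40%, against 3.71%). The higher count was 0 (against 0.109% of all regions) and 1 (0.0461%, against 0.238%) without late IL-10 replicates 1 and 2. It was 70 (3.18%, against 3.86%) without late IL-10 replicate 3. Without continuous IL-10 replicates 1, 2 and 3 it was 16 (0.734%, against 0.997%), 1 (0.0462%, against 0.339%) and 6 (0.273%, against 0.527%). The lower count was 1 (0.0460%, against 0.0410%) and 3 (0.138%, against 0.145%) without late IL-10 replicates 1 and 2. Without the continuous IL-10 replicates it was 8 (0.367%, against 0.243%), 2 (0.0923%, against 0.0628%) and 6 (0.273%, against 0.128%). At chr1:184556894-184567180, which holds the 1700112H15Rik promoter printed above, continuous IL-10 gave 5.06, 63.5 and 0.986 and late IL-10 687, 971 and 401, with 203, 279 and 64.5 under LPS. Continuous IL-10 was therefore the lowest group and late IL-10 the highest (log2 difference 6.13 (SE 1.00, adjusted p = 0.0116), lost without late IL-10 replicates 1 and 2). In the other direction, chr5:42965852-42971363, beside Bod1l, held 196, 139 and 86.7 in untreated cells, lay at the floor with LPS and late IL-10, and held 92.7, 67.3 and 38.4 with continuous IL-10. Its log2 difference of late from continuous IL-10 was -4.69 (SE 0.81, adjusted p = 0.0129), lost without late IL-10 replicates 1 and 2 and continuous IL-10 replicate 2.

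Regions with a lncRNA promoter included one beside Jun, the gene of an AP-1 subunit. At chr4:95205378-95218815, 153156 bp from Jun, the Gm32240 window printed above carries TGAGTCA, and another Gm32240 window there, not printed, carries no AP-1 match. In this region values were 639, 782 and 463 in untreated cells and 94.4, 183 and 191 with LPS. They were 712, 1211 and 874 with continuous and 125, 228 and 242 with late IL-10. LPS libraries lay under all untreated ones (log2 difference -2.04 (SE 0.41, adjusted p = 0.00201)), continuous IL-10 libraries lay above all LPS ones (2.60 (SE 0.41, adjusted p = 0.00307)), and late IL-10 overlapped LPS. Late IL-10 was lower than continuous IL-10 by a log2 difference of -2.25 (SE 0.41, adjusted p = 0.0161), a call lost without late IL-10 replicates 1 and 2 and continuous IL-10 replicates 2 and 3. The chain of 10 regions around it summed to 2462, 2849 and 2677, 2339, 2248 and 2300.1, 3411, 4123 and 3497 and 3714, 3714 and 2793 in the same order of groups.

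At chr13:35175882-35186204, which holds the start of 1700011B04Rik and a TGATTCA match, values went from 0.707, 1.26 and 0.419 to 289, 338 and 140.0 with LPS, a log2 difference of 7.09 (SE 0.62, adjusted p = 5.63e-06) and at least 107-fold. At chr16:93182287-93197482, in the Runx1 desert, with Gm30530 and its TGACTCA match, untreated libraries held 542, 478 and 604 and LPS libraries 1602, 2779 and 599.6 (log2 difference 1.36 (SE 0.49, adjusted p = 0.0462)). That call was lost without any 1 of LPS replicates 1 and 2 and untreated replicates 1, 2 and 3, and without replicate 3 the adjusted p was 0.00146. The region of the miR-99a and let-7c-1 hairpins, chr16:77595075-77607893, held 136, 285 and 2.09 in untreated cells and 846, 1195 and 394 with LPS (log2 difference 3.90 (SE 1.19, adjusted p = 0.0214)). This call was lost with edgeR and without LPS replicates 1 and 2, and the microRNAs themselves were not measured.

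AP-1 matches were searched with 5 other motifs on both strands of the 106 promoter windows in desert regions and of all 32851 windows in the RefSeq table. TGANTCA was found in 17 (16.0%, against 7.81% of all windows), PU.1's GAGGAAGT in 6 (5.66%, against 3.20%) and the interferon-response motif ISRE in 4 (3.77%, against 3.44%). An NF-kB motif was found in 1 (0.943%, against 0.411%), the GAS letters TTCCNGGAA in 1 (0.943%, against 1.15%) and C/EBP's TTGCGCAA in 0 (against 0.183%). The desert windows had a median GC content of 45.8% and 3 CpG, against 52.7% and 7 over all windows. A match is a run of letters, and binding was not measured. In all, 638 desert regions (24.8%) overlap a lncRNA gene. Of 564 tested, LPS raised 18.4% and lowered 18.3%, against 23.7% and 16.7% of the 1623 that overlap none. Of the 298 tested regions more than 100 kb from every annotated gene, LPS raised 35.6% and lowered 11.1%.

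The 8 strongest desert regions included some that were called and some that were not. Among them were the Runx1 region and the region inside the lncRNA gene beside Hlx that late IL-10 raised over LPS, both described above. The highest mean was at chr12:54394780-54412446, 190906 bp from Egln3, the gene of an oxygen-sensing hydroxylase, with 1484, 1296 and 2845 in untreated cells, 923, 1539 and 1761 with LPS, 2649, 2389 and 2773 with continuous and 498, 903 and 959 with late IL-10. Late IL-10 was under continuous IL-10 in every library there (log2 difference -1.78 (SE 0.36, adjusted p = 0.0236)), a call lost without late IL-10 replicates 1 and 2 and continuous IL-10 replicates 1, 2 and 3. At chr2:128331730-128346375, 169183 bp from Bcl2l11, which encodes the pro-apoptotic protein Bim, and inside the lncRNA gene Morrbid, LPS lowered the values from 1690.3, 1675 and 2472 to 340.4, 882 and 1035 (log2 difference -1.50 (SE 0.42, adjusted p = 0.0142), lost with median centring and without LPS replicate 1 and untreated replicate 3). 3 others of the 8 strongest were called in no comparison. They were chr4:53295820-53312835 beside Abca1, the gene of a cholesterol exporter, chr10:99453798-99470764 beside Dusp6 and chr10:96428289-96447424 beside Btg1. The Dusp6 region was called lower with continuous IL-10 than with LPS under the block (adjusted p = 0.00355) and the Btg1 region higher with LPS (adjusted p = 0.00463).

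Distances ran from 100064 to 1829040 bp, with a median of 190906 bp, and 1228 regions lie over 200 kb and 61 over 1 Mb from a protein-coding gene. Both regions farthest out lie between Pcdh7 and G6pd2. The wider one, chr5:59988096-60000554, 1808289 bp from G6pd2, held 12.7, 1.26 and 0.419 in untreated cells and 718, 1396 and 45.4 with LPS, and all LPS libraries lay above the untreated ones (log2 difference 6.67 (SE 1.36, adjusted p = 0.00209)). The farthest, chr5:59977689-59979803, held 64.9, 45.4 and 0.464 with LPS, where replicate 3 was at 1 read, and was not called. Of the widest, chr6:31071405-31090801 (19397 bp, beside Klf14) fell from 1461, 1650.2 and 1345 to 199, 420.1 and 284 with LPS (log2 difference -2.36 (SE 0.41, adjusted p = 0.000699)), and chr15:43708631-43728023 (19393 bp, beside Tmem74) rose from 203, 229 and 176 to 704, 706 and 525 (log2 difference 1.66 (SE 0.31, adjusted p = 0.00114)).

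Just over the distance limit lie chr6:51754899-51759101 (100064 bp from Skap2), chr13:42573545-42580257 (100117 bp from Phactr1) and chr2:84216641-84230484 (100142 bp from Calcrl), with LPS means of 68.1, 26.8 and 195. Just under it lie chr15:59757082-59763851 (99983 bp from Trib1), chr3:144083569-144088552 (99978 bp from Lmo4) and chr13:112185741-112188546 (99905 bp from Ankrd55), with LPS means of 104, 307 and 51.1. The widest desert region, chr10:96224084-96243708, is 19625 bp wide (LPS mean 916), and the narrowest one left out for its width, chr1:154027215-154047355 beside Glul, is 20141 bp wide (LPS mean 178).

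Of 91 genes in 12 lists of cell type markers, cytokines, interferon response, IL-10 and STAT3 targets, early AP-1 genes and lineage factors, 12 flank a desert with a desert region. Their 176 regions, 158 of them tested, were higher with LPS in 23 cases (14.6% of those tested, against 16.5% of all regions) and lower in 19 (12.03%, against 17.9%). Lineage factors Ets2, Id2, Klf4, Klf6 and Runx1 flank 138 of them, of which 125 were tested, with 15 higher (12%) and 18 lower (14.4%). Jun and Maf, both of the AP-1 class, flank 30, with 6 of 27 tested higher (22.2%) and 1 lower (3.70%). Of 17 genes of inflammatory cytokines and effectors, 1 did, namely Il6, with 2 regions too weak to test. None of the 13 interferon response genes, the 8 IL-10 and STAT3 targets and the 8 macrophage markers flanks a desert region. Over all lists, continuous IL-10 was higher than LPS at 7 (4.43%, against 3.28% of all regions) and lower at 2 (1.27%, against 3.24%), and late IL-10 was higher at 9 (5.70%, against 3.14%) and lower at 0 (against 0.396%).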

How the data were processed

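The authors deposited a signal value for each of 40691 consensus regions in 12 libraries. The tools named per the submitters' processing notes are DiffBind, MACS2, Bowtie2 and Trim Galore, on the mm10 build, and their versions and roles were not stated in the labels. In every library the deposited signal is whole reads (within 0.0001 reads) times 1 factor. An input library has no column and was not used here.

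Distances were computed from a RefSeq gene table of GRCm38.p6. Scaled values are not plain counts, so limma 3.58.1 (R 4.3.3, trend and robust moderation) was fitted to log2(value + 1) of the 36621 regions above the 10th percentile of mean log2 value, with group as the only term over all 12 libraries. The added 1 makes differences in weak regions smaller than they are. A region was called when its p, adjusted by Benjamini-Hochberg over all tested regions, was under 0.05, and every adjusted p is limma's. Means are ± SD, n = 3. The share of reads in desert regions was compared by two-sided exact permutation. edgeR 4.0.16 and DESeq2 1.42.0 on the recovered reads were alternatives. Leaving out replicate 3 in all groups and permuting within replicate numbers were alternatives chosen after seeing the data. The fit was tested on simulated data. Libraries of the same number deviated together (r from 0.149 to 0.712 over 12 pairs, and 11 of 12 libraries correlated best with their own number). Replicate numbers were treated as pairing libraries in the block fit and the permutation within replicate numbers only. The main fit, which gave the reported counts and adjusted p, left the pairing out. This pairing comes from these correlations: the series' design text speaks of 3 pools, and no label says that a number marks the same pool in each group.

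Regions were named by a rule: the 8 highest means, in each comparison the 6 called regions with the largest difference each way whose groups do not overlap, the 3 widest and 3 farthest, the 6 strongest chains, those next to the limits, and those flanking listed genes. One region that the rule names is not reported here. Beyond the rule, the deserts, their regions and the printed promoters were chosen after values were seen. The desert regions, lists and tests were chosen with earlier results of these data known.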

Additional observations from a re-analysis of the deposited data

Results flagged for a closer look

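Each result here is a difference between late and continuous IL-10, 2 timings of 1 treatment given with LPS, that passed the test of the difference itself (limma, adjusted p under 0.05). Late IL-10 was higher at 28 and lower at 29 desert regions, and the libraries on which these counts rest are given above. Regions with the largest differences, 6 higher and 5 lower, are listed by their log2 difference of late from continuous IL-10, and each of these calls ended when at least 1 late or continuous IL-10 library was left out.

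Late IL-10 was higher at chr1:166797792-166805481 between Fmo9 and Fam78b (6.28), at chr1:184556894-184567180 in the Dusp10 to Hlx desert (6.13), at chr16:5426135-5433199 beside Rbfox1 (5.57), at chr10:98681166-98687431 between Ccer1 and Atp2b1 (5.40), at chr17:83975588-83987909 between Haao and Zfp36l2 (5.10) and at chr15:13390880-13395393 between Cdh6 and Cdh9 (4.96). In the Atp2b1 region, untreated libraries held 189, 263 and 139, LPS libraries 1.97, 28.6 and 0.464, continuous IL-10 libraries 1.69, 1.27 and 0.986 and late IL-10 libraries 224, 161 and 23.9. In the Cdh6 region the values were 48.1, 151 and 67.4 in untreated cells, 1.97, 5.04 and 0.464 with LPS, 1.69, 1.27 and 18.7 with continuous and 276, 263 and 48.7 with late IL-10. Both had thus been lowered by LPS and were near the floor with continuous IL-10. The Rbfox1 call also ended without replicate 3, and it and the Cdh6 call ended with edgeR.

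Late IL-10 was lower at chr13:97658071-97662235 between Enc1 and Arhgef28 (-5.35), at chr8:35205682-35209004 between Tnks and Ppp1r3b (-4.75), at chr10:21630678-21640909 between Aldh8a1 and Sgk1 (-4.71), at chr5:42965852-42971363 beside Bod1l (-4.69) and at chr2:45292229-45300383 in the Zeb2 desert (-4.53). In the Sgk1 region, which lies 241275 bp from the gene of a stress-regulated kinase, untreated libraries held 266, 165 and 296 and continuous IL-10 libraries 142, 16.5 and 103, while LPS and late IL-10 libraries lay at 3 reads or fewer. In the Tnks region only the continuous IL-10 libraries, with 84.3, 68.6 and 46.3, lay above every other library. The Zeb2 call ended with a pseudocount of 10.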

How the results depend on the processing

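The order of the counts below is LPS higher and lower than untreated, continuous IL-10 higher and lower than LPS, late IL-10 higher and lower than LPS, and late IL-10 higher and lower than continuous IL-10, with 488, 374, 82, 68, 76, 16, 28 and 29 as reported. Among regions above the median level, 245, 118, 50, 27, 2, 13 and 13 were called (late IL-10 higher than LPS stayed within 1.5 times), as fewer regions were tested. Over 200 kb from a gene they were 230.0, 153, 31, 29, 28, 7, 12 and 15 of 1025 tested. Over 100 kb from every annotated gene they were 106, 33, 4, 5, 5, 5, 5 and 2 of 298 tested. The shares over 200 kb were 22.4%, 14.9%, 3.02%, 2.83%, 2.73%, 0.683%, 1.17% and 1.46%. Over 100 kb from every annotated gene they were 35.6%, 11.1%, 1.34%, 1.68%, 1.68%, 1.68%, 1.68% and 0.671%. The shares of all regions are those given with the reported counts. DESeq2 on the recovered reads gave 788 regions higher with LPS (36.0%, against 23.2% of all regions), then 144 and 179 for continuous IL-10, whose shares are given above. It gave 129 (5.90%, against 4.67%), 47 (2.15%, against 1.10%), 110 (5.03%, against 5.92%) and 80 (3.66%, against 2.48%) for the last 4. For the same 4, edgeR gave 49 (2.24%, against 2.27%), 8 (0.366%, against 0.248%), 17 (0.777%, against 1.35%) and 16 (0.732%, against 0.492%). Without replicate 3 they were 813 higher under LPS, 280 lower with continuous IL-10, 58 lower with late IL-10, and 211 and 78 for late against continuous IL-10. The shares of all regions beside the counts without replicate 3 are given above. For the tools and for replicate 3 the cause was not tested. Pseudocounts of 0.5 or 10, no filter on low values, median centring and no limit on width kept every count within 1.5 times.

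With the replicate block, whose pairing comes from the data and not from the labels, the counts were 803 higher under LPS, 212 and 199 for continuous IL-10, 148 and 58 for late IL-10, and 155 and 116 for late against continuous IL-10. The shares of all regions beside the counts with the block are given above. In the low, middle and high level classes the block raised the shares of desert regions higher with LPS to 32.3%, 41.1% and 38.5%. The shares lower with LPS became 23.7%, 20.6% and 22.1%. Without a split by level, the shares higher and lower were 36.7% and 22.3% with the block, and 22.3% and 17.1% without it. The block ended no named call.

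The shares of all regions called also moved when 1 library was left out, and several are given above beside the counts. Leaving out 1 library gave 330.0 to 796, 256 to 351, 38 to 96, 15 to 206, 30 to 80, 4 to 32, 0 to 70 and 1 to 40 for the 8 counts. The differences in the share of reads in desert regions then ran from 0.05 to 0.96 (LPS from untreated), -0.72 to 0.18 (continuous IL-10 from LPS), -0.53 to 0.44 (late IL-10 from LPS) and -0.10 to 0.57 points (late from continuous IL-10). With no limit on width the difference for continuous IL-10 was 0.026, and over 200 kb that for late IL-10 was -0.090 points, both of the other sign than reported and, like the reported ones, within the spread of the libraries.

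Of 95 calls at named regions, 55 held under all alternatives run and none changed sign. Of 1383 alternatives, 164 ended a call, 137 of them with 1 library left out, 14 with edgeR, 6 without replicate 3, 4 with a pseudocount of 10, 1 with median centring, 1 with a pseudocount of 0.5 and 1 with the stricter filter. Motifs in the central 300 or 600 bases of the regions were not run, because no genome sequence was given. Depth limits the weak regions: 390 desert regions were not tested, and changes near 1 read cannot be resolved.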

Other observations

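Desert regions were set beside the regions of their nearest protein-coding gene, where that gene had a tested region overlapping its body. Of 429 desert regions called higher with LPS, the nearest gene had a region called higher in 210 (49.0%), against 536 of 1448 (37.0%) for desert regions not called higher. For regions lowered by LPS the shares were 95 of 300 (31.7%) and 477 of 1577 (30.2%). For regions lower with continuous IL-10 than with LPS they were 16 of 62 (25.8%) and 131 of 1815 (7.22%), and for those higher, 16 of 71 (22.5%) and 189 of 1806 (10.5%). Several desert regions share 1 nearest gene, a gene with more regions has more chances of a call, and no test was made.

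The desert between Eea1 and Btg1, the gene of an antiproliferative protein, holds the chain with the highest summed signal. Its 11 regions summed to 1464, 2607 and 1513 in untreated cells, 4693, 7552 and 1556 with LPS, 3725, 4103 and 2494 with continuous and 4193, 7014 and 1849 with late IL-10, and LPS raised 2 of them. The third LPS library lay among the untreated libraries there. A chain of 10 regions between Klf14 and Mkln1 summed to 1790.0, 1759 and 2464 in untreated cells and 2471, 3198 and 3205 with LPS, with 2 of the 8 tested regions called higher. That chain lies beside the wide region chr6:31071405-31090801, which LPS lowered.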
